A study of Mus musculus with 2 samples.

Results

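The genes described here are 39 regulators of the mouse cell division cycle: cyclins, the kinases they activate, inhibitors of those kinases, and the E2F transcription factors with their pocket protein, p53 and Myc partners. They were chosen by name and role, with earlier results of these data known, and all 39 were found among the 43346 mouse gene identifiers of the tables. The tissue was whole liver of C57BL/6J mice at embryonic day 18 (E18), pooled from male and female littermates, with no treatment named in the labels. There were 2 stranded libraries of poly(A)+ RNA, given as biological replicates 1 and 2 of a single group, and they carry the same donor entry. No second condition, age or tissue was measured, so nothing here is a test between conditions and no p-value is given. The spread between the libraries is the error given here. Bounds on TPM within each library were also deposited and are given only for E2f7.

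The cell cycle runs on pairs of cyclins and cyclin-dependent kinases (CDKs). D cyclins with Cdk4 or Cdk6, and then E cyclins with Cdk2, phosphorylate the pocket proteins Rb1, Rbl1 and Rbl2, which releases E2F factors to transcribe genes of DNA synthesis; A and B cyclins with Cdk1 then carry the cell through G2 and mitosis. In the fetal liver, hepatoblasts and hepatocytes divide beside a large pool of blood precursors, mostly erythroid, so the RNA of the whole tissue mixes dividing and resting cells of several types.

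Mouse genes held 159127981 expected counts in replicate 1 and 136904842 in replicate 2. Markers of hepatocytes (10 of 10) and of erythroid cells (11 of 11) were detected in both libraries, as were 7 of 7 neutrophil and 7 of 7 B lymphoid markers and 8 of 8 proliferation markers. The libraries were not alike in all of these: the median log2 ratio of replicate 2 over replicate 1 was 0.39 for the neutrophil markers and -0.49 for the B lymphoid markers. The 6 pancreas acinar markers summed to 51.0 TPM (a transcript level per length, scaled to a fixed total in each library) in replicate 1 and 0.74 TPM in replicate 2. What part these differences had in the values below was not tested. In such bulk tissue, fewer cells of a type and less RNA per cell cannot be told apart.

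Nearly the whole set was present. At 1 TPM or more in both libraries, 37 of the 39 genes were detected, where 28.4% of all genes and 53.9% of protein-coding genes were. Their levels spanned more than 3 powers of 10 and centred on 11.65 ± 0.523 TPM (median over the 39 genes; SD, n = 2), and the median of all detected genes was 8.805 TPM. Of the members, 22 lay above that value, near the even split that a median sets for all detected genes. Above 100 TPM in both libraries were 4: the kinases Cdk4 and Cdk1, the D cyclin Ccnd3 and the E2F factor E2f4. The lowest of these, E2f4, lay at percentile 93.8 of detected genes by mean TPM. In the order of mean levels, 19 of 38 pairs of neighbours had overlapping ranges, so many single places in the order do not differ beyond the spread between libraries. All 39 genes together held 0.111% of all TPM in replicate 1 and 0.118% in replicate 2.

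**Figure D1:**
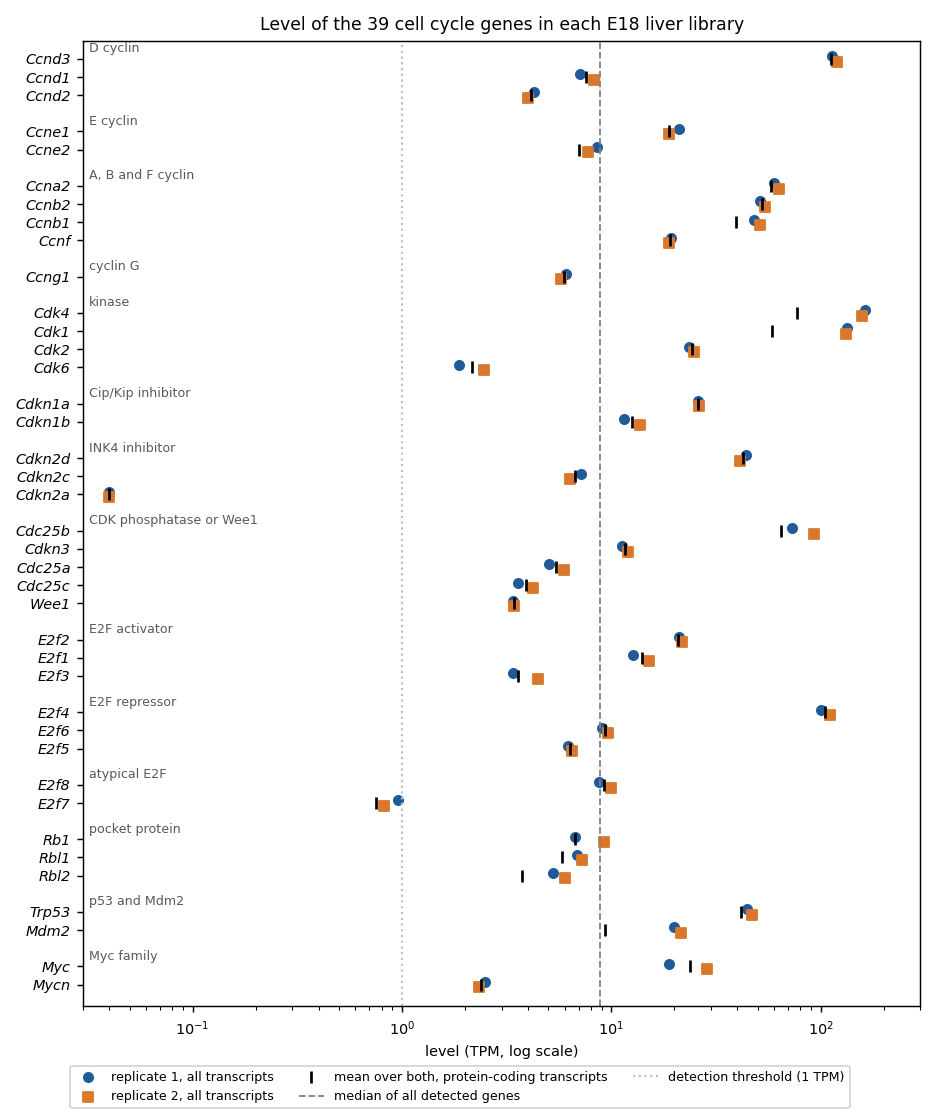
Level of each of the 39 genes in TPM on a log axis, grouped by role, with circles for replicate 1, squares for replicate 2 and a black tick for the mean over both libraries of protein-coding transcripts alone. Cdk4, Cdk1, Ccnd3 and E2f4 lie above 100 TPM, Cdkn2a and E2f7 lie below the dotted detection line at 1 TPM, and the black ticks of Cdk4, Cdk1 and Mdm2 stand well to the left of their symbols.

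One D cyclin dominated its family. Ccnd3 (chromosome 17, 47505051 to 47599691 on mm10) stood at 113.32 TPM in replicate 1 and 119.35 TPM in replicate 2. Ccnd1, the D cyclin most often named as a target of growth factor signalling, stood at 7.06 and 8.3 TPM, and Ccnd2 at 4.29 and 4.02 TPM. The 3 ranges did not overlap, and within a library the TPM of Ccnd3 was 15.2 ± 1.18 times that of Ccnd1 and 28.1 ± 2.32 times that of Ccnd2 (SD, n = 2). The excess was smaller where splice junctions were counted, over the main junctions of each gene, meaning annotated junctions with at least 10% of the reads of its highest one. By the median of these, Ccnd3 was 7.91 times Ccnd1 and 12.02 times Ccnd2. The ratio to Ccnd1 was 7.98 on the mean of the 2 RPKM values listed per gene on the older build mm9. These values were 23.2 and 18.7 for Ccnd3 and 3.59 and 1.65 for Ccnd1. Ccnd3 was first of the D cyclins on every one of these scales.

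Kinases had the largest summed TPM of any role group over all transcripts, 322.8 in replicate 1 and 317.4 in replicate 2. On protein-coding transcripts alone their sums were 161.6 and 163.5, below the 167.0 and 171.1 of the A, B and F cyclins. Cdk4, the partner of the D cyclins, stood at 163.95 and 157.1 TPM (160.5 ± 4.84), the highest of the 39. Cdk6, which binds the same cyclins, stood at 1.87 and 2.48 TPM, the lowest mean of the detected members, though its range overlapped that of Mycn. Cdk1, the mitotic kinase, stood at 133.36 and 132.9 TPM, and Cdk2, the partner of cyclins E and A, at 23.61 and 24.95 TPM. The 4 kinases did not overlap, and the TPM of Cdk4 was 75.5 ± 17.2 times that of Cdk6.

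The lead of Cdk4 and Cdk1 depended on which transcripts were summed. Less than 50% of the TPM of these genes sat on protein-coding transcripts in both libraries, which held for 2 of 37 detected members and for 6.92% of protein-coding genes detected in both libraries. In Cdk1, a 475-nt transcript annotated as a retained intron (Cdk1-204) held 48.06% and 52.84% of the gene's TPM, and the coding transcript Cdk1-202, of 1253 nt, held 40.11% and 41.4%. By expected counts the order was the other way, with 8632 and 7304 on Cdk1-202 against 2592 and 2269 on the short one. TPM divides by length, so a short transcript weighs more in TPM than in counts. In Cdk4, the 468-nt retained-intron transcript Cdk4-209 held 29.02% and 29.6% of TPM, the coding transcripts Cdk4-205 and Cdk4-201 held 27.69% and 27.95%, and 17.19% and 17.84%, and Cdk4-208, annotated as subject to nonsense-mediated decay, held 12.34% and 9.91%.

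On protein-coding transcripts alone, Cdk4 stood at 78.2 and 76.5 TPM and Cdk1 at 57.9 and 59.5 TPM. Ccnd3, at 110.1 and 113.4 TPM, and E2f4, at 100.07 and 111.14 TPM, were then the highest of the set, with ranges that overlapped. By mean, Cdk4 was the third and Cdk1 the fifth. The range of Cdk1 overlapped those of Cdc25b (59.2 and 70.8 TPM) and Ccna2 (56.6 and 59.3 TPM), so its place was not resolved. The ratio of Cdk1 to Cdk2 was 5.49 ± 0.228 on all transcripts and 2.42 ± 0.0454 on coding ones, and that of Cdk4 to Cdk6 fell from 75.5 to 36.4 ± 7.66. Median reads of main splice junctions gave 3.76 for Cdk1 over Cdk2, 43.2 for Cdk4 over Cdk6 and 1.29 for Cdk4 over Cdk1. The mm9 RPKM values gave 2.06 for Cdk1 over Cdk2 and 40.8 for Cdk4 over Cdk6. The 2 mm9 values were 15.4 and 16.2 RPKM for Cdk1 but 10.4 and 4.99 for Cdk2. They were 34.1 and 36.7 RPKM for Cdk4 but 1.27 and 0.468 for Cdk6. Across 38 members, the Spearman correlation of median junction reads was 0.961 with TPM of all transcripts and 0.976 with TPM of coding transcripts. This describes genes measured in the same libraries, which are not independent replicates.

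**Figure D2:**
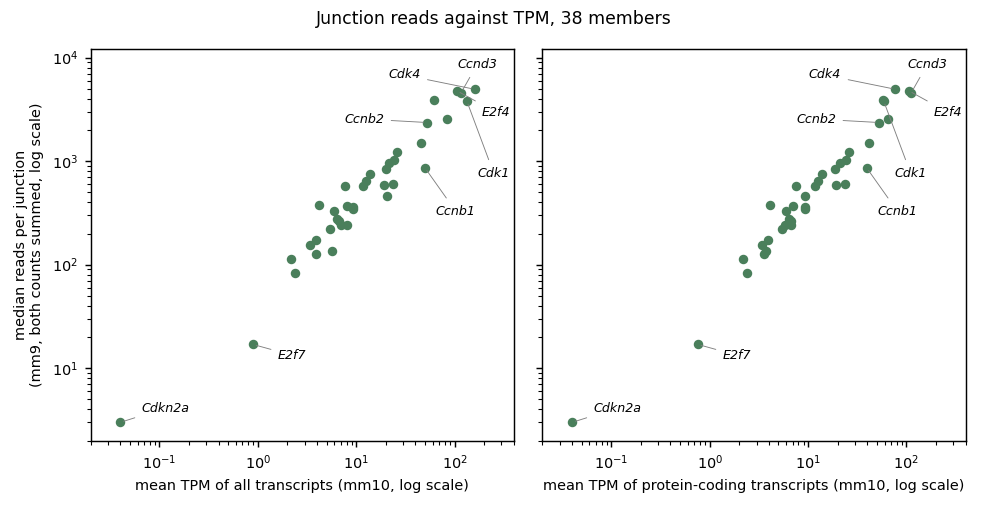
Median reads per main splice junction (annotated, with at least 10% of the reads of the gene's highest junction; mm9, both counts of the list summed) against mean TPM (mm10), both on log axes, for the 38 members with mm9 exons, with all transcripts on the left and protein-coding transcripts on the right. Cdk4 and Cdk1 move left into the trend when coding transcripts alone are summed, and Ccnb1, with a median of 866 reads, lies below Ccnb2, with 2360.5, at a similar TPM.

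Promoter sequence of both kinases is shown because each held an arrangement of short motifs that few promoters had. A promoter here is the window from 250 bases before to 50 after an annotated start, with 35 windows for 29 of the members and 32851 windows in all, from RefSeq on GRCm38.p6. Motifs were searched on both strands and each match was counted even where it overlapped another: the E2F words TTTGGCGC, TTTCCCGC, TTTGCCGC and TTTCGCGC, the cell cycle homology region (CHR) TTTGAA, the CCAAT box CCAAT, and the E-box CACGTG, whose core Myc proteins with Max can bind. The E-box reads the same on both strands and was counted as 1 match. In the stretches below, each read 5′ to 3′ on the strand of the gene and ending just before the RefSeq start, capitals mark these motifs.
Cdk1 promoter (chr10:69352913-69353052, minus strand): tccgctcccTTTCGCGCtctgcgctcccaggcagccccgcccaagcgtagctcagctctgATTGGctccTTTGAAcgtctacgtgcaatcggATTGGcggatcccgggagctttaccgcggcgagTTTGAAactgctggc
Cdk4 promoter (chr10:127063395-127063534, plus strand, E-boxes only): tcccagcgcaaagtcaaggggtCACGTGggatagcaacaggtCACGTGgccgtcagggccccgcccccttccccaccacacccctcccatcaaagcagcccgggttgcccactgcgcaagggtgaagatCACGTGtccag
Ccnb2 promoter (chr9:70421555-70421694, minus strand): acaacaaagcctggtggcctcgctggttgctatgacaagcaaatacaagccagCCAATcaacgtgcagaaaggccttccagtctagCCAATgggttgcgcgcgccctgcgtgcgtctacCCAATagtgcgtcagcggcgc

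The Cdk1 window held an E2F word, 2 CHR words and, over the whole window, 3 CCAAT boxes. All 3 kinds occurred together in 0.119% of all windows (39 of 32851) and in 2 of the 35 member windows, those of Cdk1 and E2f3. The Cdk4 window held 4 E-boxes, 3 of them in the stretch shown. At least 4 E-boxes occurred in 8 of all windows (0.0244%). Ccnb2 had 3 CCAAT boxes, all shown, and its 2 CHR words lay outside the stretch, 1 of them past the start. Over all members with a window, 9 of 29 held an E2F word (2.60% of 27025 genes), 9 a CHR word (20.2%), 20 a CCAAT box (41.1%) and 5 an E-box (8.09%). A match describes letters in the window only. These libraries measured no binding.

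E cyclins, which start DNA synthesis with Cdk2, were at intermediate levels. Ccne1 stood at 21 and 18.85 TPM and Ccne2 at 8.53 and 7.77 TPM, and the first was 2.44 ± 0.0254 times the second. Both were lower in replicate 2, and Ccne2 had the lowest log2 ratio of replicate 2 over replicate 1 of the set, -0.40.

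Cyclins of S phase and mitosis were high as a group. Ccna2, the somatic cyclin A, stood at 60.24 and 63.09 TPM, Ccnb2 at 51.11 and 54.3 TPM and Ccnb1 at 48.15 and 51.58 TPM. The B cyclins overlapped on this scale. Ccnf, an F-box protein of the cyclin family, stood at 19.27 and 18.96 TPM. Coding transcripts alone put Ccnb1 lower, at 40.1 and 38.5 TPM, which no longer overlapped Ccnb2, and median junction reads gave a ratio of Ccnb1 to Ccnb2 of 0.367. Each B cyclin has a processed pseudogene that bears its name, listed at 0.38 and 0.33 TPM for Ccnb1 and at 0.05 and 0.1 TPM for Ccnb2. How reads were shared between the copies was not tested. Ccng1, a cyclin known as a transcriptional target of p53, stood at 6.08 and 5.77 TPM.

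The inhibitors split by gene and not by family. Among Cip/Kip inhibitors, which act on Cdk2 complexes, Cdkn1a (p21) stood at 25.87 and 26.31 TPM and Cdkn1b (p27) at 11.45 and 13.71 TPM. The remaining Cip/Kip gene, Cdkn1c (p57), an imprinted inhibitor outside the 39, stood at 46.5 and 80.04 TPM, and its log2 ratio between libraries, 0.67, was larger than that of any of the 39. Among INK4 inhibitors, which bind Cdk4 and Cdk6, Cdkn2d (p19) stood at 44.28 and 41.23 TPM and Cdkn2c (p18) at 7.17 and 6.33 TPM, a ratio of Cdkn2c to Cdkn2d of 0.158 ± 0.00594.

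Cdkn2a, which encodes p16 and the p53 regulator Arf from 2 first exons, was the lowest of the set. It had 4 expected counts in replicate 1 and 3 in replicate 2, or 0.04 TPM in each, and 6 reads across its junctions on mm9, of which 1 left the far upstream first exon and 5 joined later exons. Its INK4 neighbour outside the set, Cdkn2b (p15), stood at 0.08 and 0.03 TPM. At this depth both INK4 genes were near the limit of what could be counted, while the 2 others of the family were well above it. In Cdkn1a, 1467 junction reads left the proximal first exon and 13 the distal one.

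Phosphatases that activate CDKs were led by Cdc25b. Cdc25b stood at 72.98 and 93.15 TPM, higher in replicate 2 by 0.17 on the log2 scale of scaled counts. Cdc25a stood at 5.02 and 5.93 TPM and Cdc25c at 3.6 and 4.22 TPM, and the ratio of Cdc25b to Cdc25a was 15.1 ± 0.828 on TPM and 9.54 on mm9 RPKM. Wee1, the kinase that opposes them by phosphorylating Cdk1, stood at 3.41 and 3.42 TPM, among the lowest detected members. Cdkn3, a phosphatase that removes the activating phosphate of CDKs, stood at 11.28 and 12.02 TPM.

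Among E2F factors the most abundant was a repressor. E2f4, which acts with the pocket proteins, stood at 100.07 and 111.14 TPM (105.6 ± 7.83), and its TPM was 7.58 ± 0.376 times that of the activator E2f1. The same ratio was 6.41 on main junction reads and 3.88 on mm9 RPKM. The 2 mm9 values were 18.1 and 17.5 RPKM for E2f4 but 6.33 and 2.82 for E2f1. E2f5, its closest relative, stood at 6.2 and 6.51 TPM, and E2f6, which represses without a pocket protein, at 9.06 and 9.63 TPM. Of the activators, E2f2 stood at 21.08 and 21.88 TPM, E2f1 at 12.75 and 15.19 TPM and E2f3 at 3.38 and 4.46 TPM, and none of these ranges overlapped. E2f3 is transcribed from alternative first exons, and 32 junction reads left the distal one and 18 the proximal one. Of the atypical repressors, E2f8 stood at 8.7 and 9.95 TPM and E2f7 at 0.96 and 0.82 TPM. The deposited bounds on the TPM of E2f7, 0.913 to 1.252 in replicate 1 and 0.796 to 1.11 in replicate 2, both include the detection threshold (the level of these bounds is not stated).

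Pocket proteins, the targets of CDK phosphorylation, were close together. Rb1 stood at 6.7 and 9.27 TPM, Rbl1 (p107) at 6.88 and 7.28 TPM and Rbl2 (p130) at 5.29 and 5.99 TPM. The range of Rb1 held that of Rbl1, and their ratio, Rbl1 over Rb1, was 1.03 in replicate 1 and 0.785 in replicate 2. On coding transcripts it was 0.920 and 0.812, and on mm9 RPKM 1.01. Their order was thus not the same on all scales. Coding transcripts held 66.9% and 65.8% of the TPM of Rbl2. Of 10 E2F partners and subunits of the DREAM and MuvB complexes outside the set, 9 passed 1 TPM in both libraries, and the list centred on 12.15 ± 1.12 TPM. The E2F partner Tfdp1 stood at 63.4 and 65.1 TPM, and Mybl1, the relative of the mitotic activator Mybl2, was the one not detected.

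Trp53 (p53) stood at 44.65 and 46.94 TPM, and Mdm2, the ubiquitin ligase that p53 induces and that degrades it, at 19.95 and 21.57 TPM. Their ratio, Mdm2 over Trp53, was 0.453 ± 0.00899 on all transcripts and 0.224 ± 0.0251 on coding transcripts, where coding transcripts held 50.7% and 40.01% of the TPM of Mdm2. On mm9 RPKM it was 0.710, from 7.59 and 4.78 RPKM for Mdm2 and 8.86 and 8.57 for Trp53. The coding transcript Mdm2-201 held 49.81% and 38.78%, and Mdm2-209, annotated as subject to nonsense-mediated decay, held 15.56% and 25.33%. Of 20 further p53 targets and partners, 14 were detected, from Gadd45a (36.6 and 40.1 TPM), a stress-induced growth arrest protein, down to Sesn2 (3.32 and 3.21 TPM), and the p53 relatives Trp63 and Trp73 were at or under 0.05 TPM.

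Myc stood at 18.86 TPM in replicate 1 and 28.76 TPM in replicate 2, the largest ratio between libraries in the set. Its log2 ratio on scaled counts was 0.47, a 1.38-fold difference. Mycn, the paralog used by many embryonic progenitors, stood at 2.49 and 2.33 TPM, and the ratio of Myc to Mycn was 9.96 ± 3.37. Their dimer partner Max stood at 17.4 and 18.9 TPM, and 9 of 10 Myc partners and antagonists were detected, the exception being Mycl at 0.86 and 0.75 TPM.

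**Figure D3:**
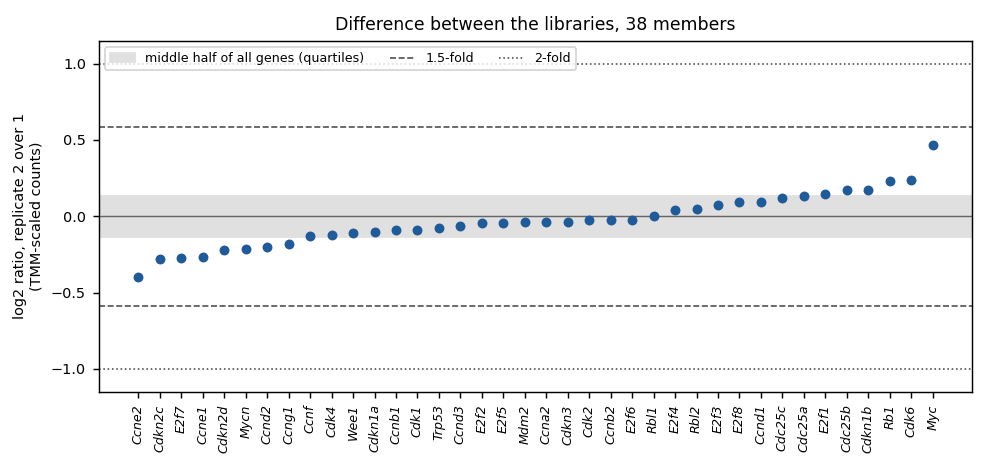
Log2 ratio of replicate 2 over replicate 1 on TMM-scaled expected counts for the 38 members that averaged 50 counts or more, in increasing order, with the grey band between the lower and upper quartiles of all genes and lines at 1.5-fold and 2-fold. On this scale every member lies within the 1.5-fold lines, with Ccne2 lowest at -0.40 and Myc highest at 0.47.

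The libraries were close for this set. None of the 38 members that averaged 50 counts or more differed beyond 2-fold, where 1.82% of 14956 genes did, and none beyond 1.5-fold, where 5.71% did, so for 38 genes a count of 0 is near the background share. On the ratio of TPM, 1 member, Myc, passed 1.5-fold, where 5.30% of all genes did. Of these members, 14 were higher in replicate 2, against 50% of all genes. By TPM 27 of 39 were, but on that scale the log2 ratio over all genes had a median of 0.10. The lower and upper quartiles of all genes were -0.14 and 0.14, and 8 members lay below them (among them Ccne1, Ccne2, Cdkn2c and Cdkn2d) and 6 above (among them Myc, Cdk6 and Rb1). The median log2 ratio of the members was -0.04, and it turned positive under other scalings, to 0.01 by total count and 0.08 by TPM, so it shows no direction.

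Of 37 detected members, 27 had more than 1 annotated transcript at a mean of 1 TPM or more. The leading transcript was the same in both libraries in 26 of these 27 (93.8% of 8910 such genes), and 7 had at least 90% of TPM in 1 transcript (24%). The exception was Myc. Myc-202 led in replicate 1 with 27.46%, and had 25.28% in replicate 2, where Myc-205 led with 31% after 12.67% in replicate 1. Myc-201 held 27.11% and 4.44%. Myc-201 and Myc-205 are identical in all 2338 bases and differ only in the annotated coding start, so reads cannot be divided between them. Added together they held 39.78% and 35.44%. Myc-202 and Myc-208, a shorter transcript that lies within it, together held 37.21% and 38.22%, so the order of these pairs was not the same in both libraries. In Trp53, the transcripts Trp53-201 and Trp53-203 differ by 1 base in length, the shorter lying within the longer, and their shares of 20.16% and 31.99%, and 59.98% and 46.33%, added to 80.1% and 78.3%.

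Splice junctions, listed by the authors on mm9 with 2 counts each, showed choices within the genes. The members held 341044 junction reads, 98.15% of them on annotated junctions, a share that was not computed over all genes. An annotated alternative junction with at least 5% of the reads at its shared end and at least 20 reads was seen in 9 of 37 members (25.6% of 12580 genes with at least 100 such reads). The choices included Cdk2, where 598 and 483 reads joined an extra exon to its neighbours and 493 skipped it. Transcript shares were also near even, with 45.92% and 48.42% of TPM on Cdk2-202 (2432 nt) and 54.08% and 51.58% on the shorter Cdk2-201 (2288 nt). In Cdc25b, 890 reads used one donor and 835 another before the same acceptor. The donor with 890 reads ends an exon that 947 reads entered, and the 835 reads skipped this exon. In E2f6, 124 reads used one acceptor and 101 another after the same donor. An unannotated junction with 127 reads, 74 and 53 in the 2 counts, also ended at the first of these acceptors. It started downstream of the second, so the choice includes an exon kept or skipped. The minor share in E2f6 was 54.8% in the first count and 32.3% in the second, the widest gap among the alternatives.

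Pairs of acceptors only 3 bases apart were sought among all listed junctions, annotated or not. With at least 20 reads and 5% on the minor acceptor, 4 members had one: Ccne2, Cdkn3, Myc and Cdc25a. Pairs below these minimums were listed in other members, such as Cdc25b, with 70 reads, or 2.45%, on the minor acceptor. The share of all genes on this basis was not computed. Both junctions were annotated in Ccne2 and Myc, that is in 2 of 37 members, against 2.58% of the same 12580 genes. The sequences across the joints of the 3 genes with the most reads on the minor acceptor are printed because the choice consists of these 3 bases. They come from GENCODE M21 transcripts on GRCm38, matched to the mm9 junctions by gene and intron length. Capitals mark the bases kept when the upstream acceptor is used. The first 3 bases shown for Ccne2 are its annotated start codon, and the last 3 shown for Myc are one of its annotated start codons.
Ccne2-202, upstream acceptor (chr4:11192717 joined to 11192815): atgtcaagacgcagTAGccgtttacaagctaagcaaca
Ccne2-201, downstream acceptor (chr4:11192717 joined to 11192818): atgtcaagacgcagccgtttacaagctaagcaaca
Cdkn3-202, upstream acceptor (chr14:46768897 joined to 46769833): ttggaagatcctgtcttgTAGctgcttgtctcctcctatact
Cdkn3-201, downstream acceptor (chr14:46768897 joined to 46769836): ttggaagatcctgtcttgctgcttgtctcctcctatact
Myc-205, upstream acceptor (chr15:61985951 joined to 61987507): ttggaaaccccgCAGacagccacgacgatg
Myc-202, downstream acceptor (chr15:61985951 joined to 61987510): ttggaaaccccgacagccacgacgatg

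The upstream acceptor was the one used more in all 4 genes. It took 442 of 521 reads in Ccne2 (83.7% in the first count and 85.9% in the second), 747 of 877 in Cdkn3 (85.2% and 85.1%) and 599 of 846 in Myc (68.1% and 73.2%). In Cdc25a it took 211 of 243, with 32 reads, or 13.2%, on a downstream acceptor that the annotation lacks. In Cdkn3 this junction was absent from the annotation of the mm9 files, and the only Cdkn3 transcript in the deposited mm10 table, Cdkn3-201, uses the downstream acceptor, which had 130 reads. In Ccne2 the transcript table had the same order, with 74.61% and 68.21% of TPM on Ccne2-202 and 13.18% and 10.73% on Ccne2-201.

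Trp53 had a choice of another size. After the same donor, 1220 reads used the downstream acceptor and 107 one that lies 96 bases upstream, 6.70% of the first count and 9.81% of the second. The transcript that carries the upstream form, Trp53-202, held 13.37% and 10.39% of the gene's TPM. The joint is printed because it changes the coding end of p53. Capitals mark the first 44 bases that the upstream form adds, and the lower line shows the main form.
Trp53-202, upstream acceptor (chr11:69590762 joined to 69591254): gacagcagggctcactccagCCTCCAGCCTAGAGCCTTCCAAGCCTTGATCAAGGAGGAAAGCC
Trp53-203, downstream acceptor (chr11:69590762 joined to 69591350): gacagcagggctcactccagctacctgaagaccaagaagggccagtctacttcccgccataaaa

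**Figure D4:**
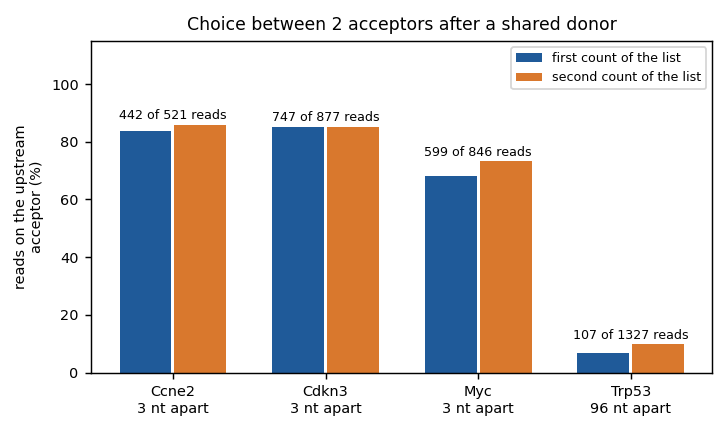
Percent of reads on the upstream of 2 acceptors that follow a shared donor, for 4 members, with a bar for each of the 2 counts of the junction list and the summed reads above. The upstream acceptor holds 68.1% to 85.9% in Ccne2, Cdkn3 and Myc, whose acceptors lie 3 bases apart, and 6.70% and 9.81% in Trp53.

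Genes around the set were described by lists chosen by role. Of 28 cyclins, CDKs and an assembly factor outside the 39, most of them of transcription and not of division, 24 passed 1 TPM in both libraries and the median was 7.81 ± 0.831 TPM. Ccnl2, a cyclin linked to splicing, was the highest at 90.5 and 104.5 TPM. All 12 other CDK regulators passed it, and their median was 19.1 ± 0.385 TPM. The small CDK-binding protein Cks2 stood at 151.4 and 178.9 TPM, above every member except Cdk4 in replicate 1 and above all of them in replicate 2. In these 2 lists, 26 and 12 genes averaged 50 counts or more. None of them differed beyond 1.5-fold between the libraries, where 5.71% of all genes did, so for so few genes this is near the background share.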

How the data were processed

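The authors deposited, for each of the 2 libraries, gene and transcript tables on mm10 with GENCODE M4, per the file headers, with an expected count, TPM, FPKM and the percent of a gene's TPM on each transcript. On mm9 they deposited a table of 2 RPKM values per gene and a junction list with a whole read count for each of 2 columns. These mm9 columns were not assigned to replicates here. Ratios on mm9 RPKM divide the mean of the 2 values of one gene by that of the other, and no spread is given for them. Neither the aligner nor the quantifier is given in the sources used here. The rows that name no mouse gene held 2.83% and 2.13% of expected counts and were left out of library sizes. Expected counts were rounded and scaled by TMM in edgeR 4.0.16 (R 4.3.3), with DESeq2 1.42.0 size factors as an alternative. Log2 ratios had 0.5 added, which shrinks those of genes with few counts. Python 3.11.15 did the rest. The ratio step was tested on simulated data. Protein-coding TPM sums the deposited TPM of transcripts typed protein coding in GENCODE M21, whose names cover all 158 member transcripts. Gene positions are on mm10, 1-based. The members and lists were chosen with earlier results of these data known. All 39 members were named by role. Genes named outside them were picked after their values were seen. Where nothing says that the replicates came from separate animals, their spread may be technical. Depth was 163766625 and 139889938 expected counts over all rows. A difference in TPM also carries the length estimate of the authors' software.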

Additional observations from a re-analysis of the deposited data

How the results depend on the processing

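With 1 group of 2 libraries, depth and spread limit these values more than any test could. The number of detected members was 37 with either library alone, on FPKM and on coding transcripts, 38 at 0.5 TPM, 31 at 5 TPM and 29 on mm9 RPKM at 1. The median level was 11.28 to 12.02 TPM with 1 library left out, 10.9 on FPKM, 2.999 on mm9 RPKM, another unit, and 9.995 on coding transcripts, an alternative added after seeing the data, as was the 1.5-fold threshold, which 0 members passed on scaled counts and 1 on TPM. The count beyond 2-fold was 0 under every scaling, count minimum and pseudocount tried. The median log2 ratio reversed from -0.0379 to 0.0138 by total count and 0.0799 by TPM. The same leading transcript was found in 14 of 15 members at 10 TPM, a count lowered by the fewer genes tested. In 12 members 1 transcript held 80%, and 90% was held in 7 to 9 with 1 library left out. Junctions of at least 10 reads gave 98.9% annotated. Of 21 ratios under 125 alternatives, 2 reversed in 4 cases: Ccnb1 over Ccnb2 (1.42 on counts without length, 1.11 on mm9 RPKM) and Rbl1 over Rb1 (1.01 on mm9 RPKM, 1.03 without replicate 2, against 0.785 without replicate 1), and the cause was not tested. The mm9 ratio of the B cyclins rests on mean RPKM. Ccnb1 had 12.7 and 6.76 RPKM and Ccnb2 8.92 and 8.65, so the first values reversed the order and the second did not. No paired analysis was possible because there is only 1 group.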

Other observations

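The 2 values in the mm9 RPKM table differed in a way that the mm10 tables did not show. Of 37 members with both values over 0.1, 20 had a second value under 0.6 of the first, 14 had one between 0.8 and 1.2 of it, and 0 had one above 1.2. Over 13840 genes, 38.6% and 39.3% fell in the first and second of these ranges. The lowest ratio of the set was 0.369, in Cdk6 (1.27 and 0.468 RPKM). Ranks were little changed, with a Spearman correlation of 0.965 between mean TPM and mean RPKM over 38 members, which share their libraries. Which of the 2 values belongs to which replicate was not established here.

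Reads along Ccnb1 were uneven. From the 3′ side to the 5′ side, its annotated junctions with at least 10 reads had 1610, 136, 866, 1446, 318, 693, 93 and 50 reads, and all annotated junctions of Ccnb2 with reads had between 1606 and 4121. Expected counts of Ccnb1, 15302 and 12798, exceeded those of Ccnb2, 10537 and 9228, while its junction reads, 5269 in all, were fewer than the 20456 of Ccnb2.

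Of the 38 members with mm9 exons, 4 had under 95% of junction reads on annotated junctions: Cdkn3 (81.6%), E2f6 (89.3%), Ccne1 (90.9%) and E2f3 (93.7%). The matching share over all genes was not computed, so this count is a description only. In Ccne1 a single unannotated junction held 759 reads, 443 and 316 in the 2 counts. Both its ends were shifted 2 bases in the same direction from an annotated intron, which itself had no listed reads. The median over the main junctions of Ccne1 was 847.5 reads, so these reads may be the regular intron placed differently, which was not tested.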
